A study of Mus musculus with 4 samples.

Results

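The cells described here were gated as monocytes of transplanted mouse mammary tumours, for message of Ly6c2, Plac8 and Ccr2 and little message of macrophage and neutrophil genes. Below, "monocytes" means the members of this gate, some of which carried genes of other cell types. They were chosen from raw counts of unique molecular identifiers (UMIs, 1 per captured message). Per 10000 UMIs, a member had at least 10 of Tyrobp and Fcer1g together and at least 10 of Ly6c2, Plac8 and Ccr2 together. It had under 20 of C1qa, C1qb and C1qc, under 10 of Mmp12, Il1rn and Nos2, under 50 of S100a8 and S100a9, and under 10 of the tumour genes Krt8, Krt18, Tm4sf1 and Cdkn2a. It had 0 UMIs of Cd3e, Cd3g, Ncr1 and Siglech, and at least 300 genes. The rule found 1195 of 45220 cells, with 365 and 232 from control tumours and 318 and 280 with the shRNA. Because these genes chose the members, their levels are a description and carry no test.

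Tumours were grown from Py8119, a mouse mammary carcinoma line used as a model of triple-negative breast cancer. There were 2 libraries from control tumours, labelled NC, and 2 from tumours with a short hairpin RNA (shRNA) against Sema4d, which encodes a membrane semaphorin. The study asked about Sema4d of the tumour cells themselves. The sources used here do not give the hosts' strain, age and sex, the vector and promoter of the shRNA, or whether 1 tumour or several went into a library. The labels do not say that the tumours of a group came from separate mice, so p-values measure the spread between these libraries only.

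Classical monocytes leave the bone marrow through the chemokine receptor CCR2, circulate, and enter tumours, where they can become macrophages. In mice they carry high surface Ly6C, and nonclassical monocytes, which patrol vessels and depend on the factor NR4A1, carry little. Monocytes respond strongly to interferons, and macrophages that mature in tumours gain complement C1q and apolipoprotein E.

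Markers of the members were examined first. Plac8, a small protein of myeloid and lymphoid cells, had a UMI in 93.2% of members. Ly6c2, which encodes the Ly6C antigen (chr15:75108158-75111970, minus strand, GRCm38), had one in 61.0% and Ccr2 in 45.1%. Chil3, a chitinase-like protein of classical monocytes that the rule did not use, was found in 28.0%. All 3 rule genes were found together in 27.4% of members, and Plac8 without the other 2 in 23.5%. Median depth was 2024 to 2139 UMIs per member. Tumour-gated cells, with median depths of 9441.5 to 11142 UMIs, had a Ly6c2 UMI in 0.932% to 3.25% of cells and a Chil3 UMI in 0.180% to 2.97%, the background in cells that should lack these genes. No UMI of the 3 C1q genes was found in 63.7% of members, and this share ran with the groups, at 50.1% and 57.3% in controls and 77.0% and 71.4% with the shRNA. Of C1qa, a rule gene, members held 113 and 95.1 against 36.7 and 62.5 CPM. Between 10 and 12 monocyte-gene UMIs per 10000, just inside the rule, there were 42 members, and 71 otherwise matching cells lay just outside, between 8 and 10.

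The label "classical" covered a portion of the gate. Clustering of the 1195 members gave 9 clusters, each with cells of all 4 libraries, which are described by their leading genes and not compared between groups. The largest, of 250 cells, was classical monocyte-like, with Hp, Gm9733, Mgst1, Ifitm6, Lyz2 and Chil3 among its 10 leading genes. A cluster of 117 cells was nonclassical monocyte-like, led by Fabp4, Ace and Ear2 with Pglyrp1, Treml4 and Adgre4. Its level of Ly6c2 was 262 counts per 1000000 UMIs (CPM), against 1533 CPM in the classical-like cells. A cluster of 154 cells was led by the interferon-response genes Rsad2, Cmpk2 and Ifit1. Its Ly6c2, at 2695 CPM, was the highest of the 9 clusters. Clusters of 191 and 147 cells were led by Hilpda, Cxcl16 and Fth1 and by Rhov, Ier3 and Ankrd37. Their Ly6c2 was 1898 and 999.8 CPM. A cluster of 129 cells was led by Pde7b and Dock4, with Ly6c2 at 1893 CPM and the nuclear RNA Malat1 at 10830.0 CPM. The name classical-like thus rests on leading genes, since high Ly6c2 was not limited to that cluster. A cluster of 105 cells was led by Ccl17, Cd209a and class II antigen presentation genes, with Ly6c2 at 383 CPM and the class II chaperone Cd74 at 14680.0 CPM. The last 2 clusters carried genes of other cells. The one of 36 cells was led by Cald1, Aebp1 and Sparc and had a median of 8030 UMIs, and 75.0% of its cells were among the highest doublet scores. The one of 66 cells was led by Gzmc, Gzma and Gzmb with Nkg7, genes of cytotoxic lymphocytes.

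**Figure D1:**
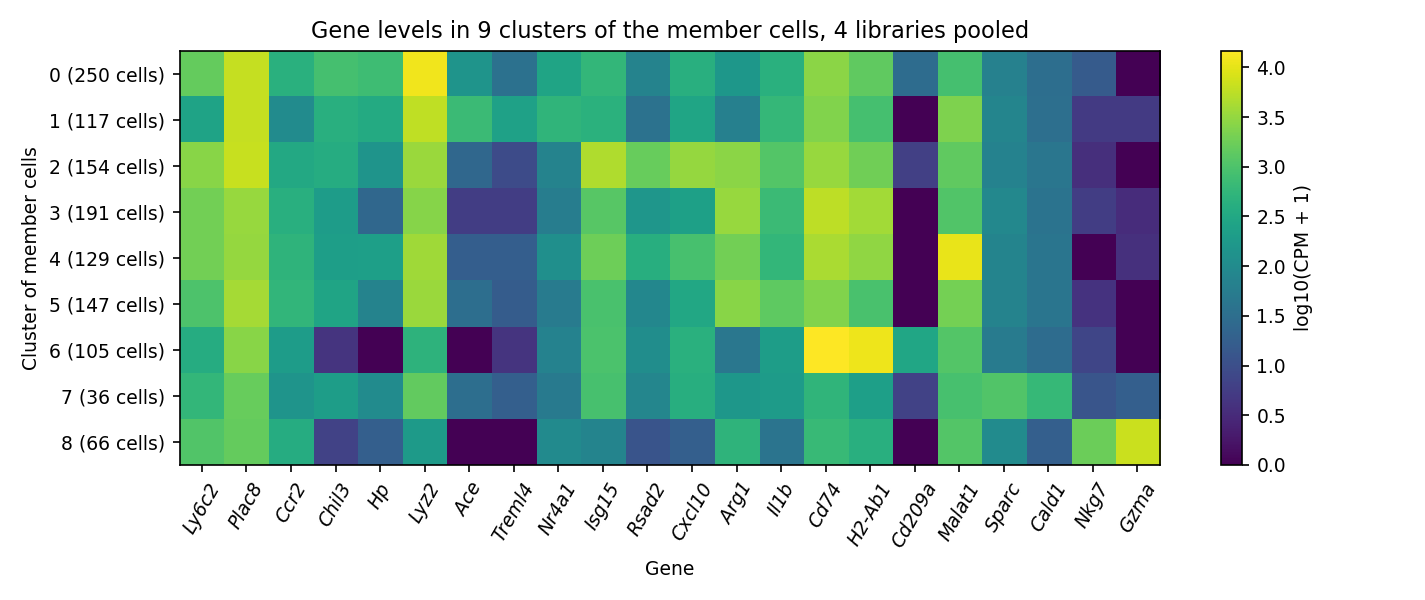
Heat map of log10(CPM + 1) for genes (x axis) in the 9 clusters of member cells (y axis, with cell numbers, 4 libraries pooled). Ly6c2 and Plac8 run through the clusters, Ace and Treml4 are highest in cluster 1, Rsad2 and Cxcl10 in cluster 2, Sparc and Cald1 in cluster 7, and Nkg7 and Gzma in cluster 8.

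Members with lymphocyte genes were spread unevenly over the groups. Those with at least 2 UMIs of the T and natural killer (NK) list numbered 6 and 7 in control and 27 and 30 in shRNA libraries, or 1.64% and 3.02% against 8.49% and 10.7% of members. The summed level of that list was 134 and 294 CPM in control members and 1280.4 and 1214 CPM in shRNA members. Members with doublet scores in the highest 6% of their library numbered 14, 10, 19 and 10 (controls, then shRNA). Gene results are therefore given for all members and again for 1076 reduced cells, which leave out both kinds of cell. The reduced cells number 346 and 215 in controls and 275 and 240 with the shRNA. Their T and NK list stood at 5.66 to 14.7 CPM, which follows from leaving cells out by that same list. The neutrophil list summed to 45.7 to 67.7 CPM in members, with Ly6g at 0, and the B and plasma cell list to 3.44 to 8.17 CPM, with Mzb1 at 0.

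The libraries held 10575 to 13173 cells and 83513906 to 119758159 UMIs, and members summed to 547070 to 978801 UMIs per library. Cell names are serial numbers, and 756 to 3782 were shared between pairs of libraries, with identical counts in 0 cases. Sema4d, the targeted gene, was 7.06 and 8.05 CPM in the control libraries and 4.34 and 6.15 CPM with the shRNA in tumour-gated cells, a log2 difference of -0.47 that did not pass (edgeR adjusted p = 0.346). In the monocytes, which express more of it, Sema4d was 177 and 170.0 against 142 and 154 CPM (log2 -0.27, SE 0.185, edgeR adjusted p = 0.5903). The median mitochondrial share of a member's UMIs was 1.93% and 1.75% in controls and 0.527% and 0.611% with the shRNA.

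As a share of all cells, the monocytes did not separate the groups. They were 3.36% (exact 95% interval 3.03% to 3.71%) and 2.19% (1.92% to 2.49%) of cells in the control libraries, a mean of 2.77% ± 0.826 (SD, n = 2). With the shRNA they were 3.01% (2.69% to 3.35%) and 2.13% (1.89% to 2.39%), a mean of 2.57% ± 0.623 (SD, n = 2). Replicate 1 of each group was high and replicate 2 low, and the groups overlapped. The difference of mean log2 shares, shRNA minus control, was -0.10 (exact two-sided permutation p = 0.667). The smallest p that 2 against 2 libraries can give is 0.333. Without control replicate 1 that difference was 0.21, and without shRNA replicate 2 it was 0.15. The intervals cover counting error only.

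Among gated myeloid cells the monocyte share was larger in both shRNA libraries. It was 10.98% and 5.64% in controls and 16.7% and 11.7% with the shRNA, a difference of mean log2 shares of 0.83 (exact permutation p = 0.333). The groups did not overlap, but control replicate 1 and shRNA replicate 2 lay close, with exact 95% intervals of 9.93% to 12.1% and 10.4% to 13.03%. The denominator differed as well: C1q-high cells, the largest myeloid class, numbered 2295 and 3243 in controls and 954 and 1467 with the shRNA. Per 100 C1q-high cells there were 15.9 and 7.15 monocytes in controls and 33.3 and 19.1 with the shRNA, a difference of mean log2 values of 1.24 (exact permutation p = 0.333). In the reduced cells that of the myeloid share was 0.73 and the groups overlapped (exact permutation p = 0.667), while that per C1q-high cell was 1.09 without overlap.

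**Figure D2:**
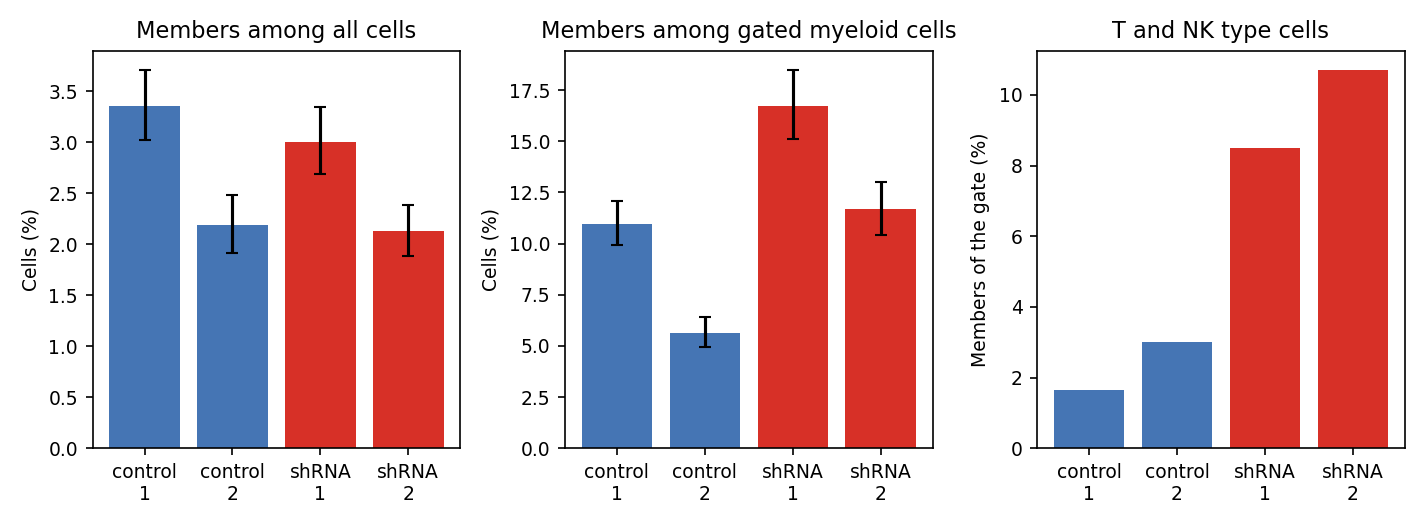
Percent of cells per library (x axis, group and replicate): members among all cells and among gated myeloid cells, with exact 95% intervals for counting error, and T and NK type cells among members. The all-cell shares overlap between groups, and the myeloid shares of 16.7% and 11.7% with the shRNA lie above 10.98% and 5.64% in controls, as do the T and NK type shares of 8.49% and 10.7% above 1.64% and 3.02%.

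Against C1q-high myeloid cells the monocytes are described without a test, since measured genes separated the classes. Of 1494 genes with at least 100 CPM, 1037 had the same sign in all 4 libraries, of which 176 were above log2 1 and 104 below log2 -1. Hp, haptoglobin, was 231, 186, 246 and 254 CPM in the monocytes (controls 1 and 2, shRNA 1 and 2) and 1.42 to 3.43 CPM in C1q-high cells, a mean log2 ratio of 6.65 (SD 0.514, n = 4). Ifitm6, an interferon-induced membrane gene, was 89.6 to 110.3 CPM against 0.787 to 2.26 CPM. Both genes were even over the 4 libraries of monocytes. The inflammatory cytokine Il1b was 422 to 797 CPM against 34.6 to 48.3 CPM, a mean log2 ratio of 3.78. Nr4a1 was 109 to 166 CPM against 11.6 to 13.8 CPM, with one of the most even ratios among the leading genes, 3.47 (SD 0.195, n = 4). Tspan13, Ly6i, Slpi, Adgre5, Cytip and Napsa were also among the 15 highest ratios, at 3.64 to 4.42. Gzma, Gzmb, Gzmc and Gzmf were among them too and belong to the lymphocyte-type members: Gzmc was 1.02 and 5.48 against 351 and 1158 CPM in members and at most 3.27 CPM in the reduced cells.

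Chil3 varied widely between libraries. It was 423 and 256 CPM in the control libraries and 507 and 128 CPM with the shRNA in the monocytes, so replicate 1 was the higher in both groups. In C1q-high cells it was 4.59 and 1.17 against 188 and 1.603 CPM, high in shRNA replicate 1 alone, and the Mmp12, Il1rn or Nos2 cells held 35.5 and 13.9 against 363 and 5.80 CPM, with the same library on top. The log2 difference in the monocytes was -0.16 (SE 0.948, edgeR adjusted p = 0.978), and 0.08 in the reduced cells.

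Genes low in the monocytes were those of mature tumour macrophages. Apoe, the lipid carrier, was 1307 to 1380.1 CPM in monocytes and 12981 to 14471 CPM in C1q-high cells, a mean log2 ratio of -3.36 (SD 0.149, n = 4). The mannose receptor Mrc1 was 17.2 to 24.2 CPM against 168 to 328 CPM, and Ms4a7, a macrophage membrane gene, 22.96 to 37.9 CPM against 533 to 752 CPM. The folate receptor Folr2 was 1.02 to 2.55 CPM in monocytes, where tumour-gated cells held 0.798 to 1.71 CPM, against 81.5 to 197 CPM. The chemokines Ccl8 and Pf4 had mean log2 ratios of -6.64 and -5.21. Ccl8 in C1q-high cells was 451 and 399 against 2686 and 419 CPM, again high in shRNA replicate 1. Against the Mmp12, Il1rn or Nos2 cells, 974 of 1458 genes had the same sign in all libraries, 99 of them above log2 1 and 115 below log2 -1. Hp, Ifitm6 and Nr4a1 were again among the highest there (3.82, 4.59 and 3.32). The collagenase Mmp13 and the proton pump subunit Atp6v0d2 joined the lowest (-5.19 and -4.96).

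**Figure D3:**
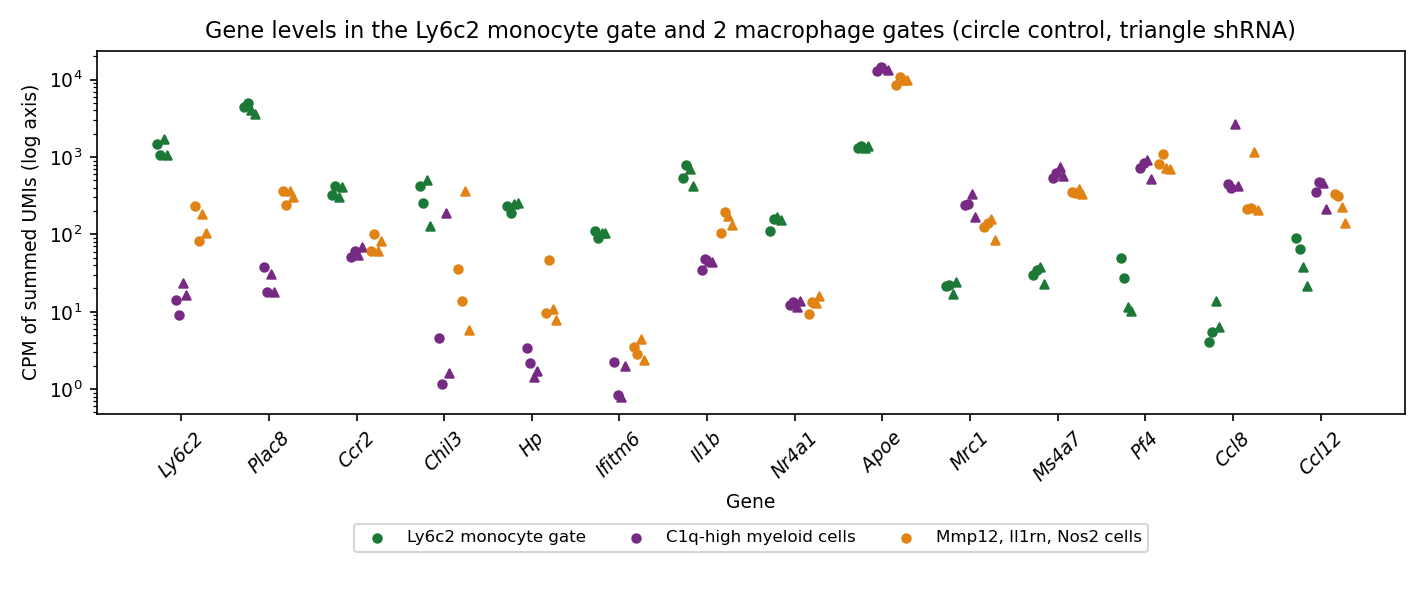
CPM of summed UMIs (y axis, log) for genes (x axis) in Ly6c2 monocytes, C1q-high myeloid cells and Mmp12, Il1rn or Nos2 cells, 1 point per library (circles control, triangles shRNA). Hp lies at 186 to 254 CPM in the monocytes and Apoe at 1307 to 1380.1 CPM, and Chil3 of the other classes is high in shRNA replicate 1 alone.

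Comparing shRNA with control tumours, edgeR's quasi-likelihood test on the members' summed counts called 115 of 6898 genes (1.67%) at a Benjamini-Hochberg adjusted p under 0.05, 42 higher (0.609%) and 73 lower (1.06%). Of 5806 genes tested in the reduced cells it called 21 (0.362%), 2 higher (0.0344%) and 19 lower (0.327%). Non-overlap of the groups alone was reached by 42.9% of the 6898 genes. All 19 lower genes and the phosphatase Dusp2 were called in both sets. An unadjusted p under 0.05 was reached by 851 genes in all members and 361 in the reduced cells. Without control replicate 1 edgeR called 21 higher and 29 lower in all members, and without control replicate 2 it called 21 higher and 51 lower. Among the reduced cells, 9 higher genes were called without control replicate 1, 16 without shRNA replicate 1 and 5 without shRNA replicate 2, and lower genes reached 31 without control replicate 2 and 43 without shRNA replicate 1. DESeq2 called 0 higher and 14 lower there, with 74 genes at an unadjusted p under 0.05. Those 14 included Cxcl10 and Nkain2 but not Ifit1, Maf or Hspa1b. Median log2 differences over all genes tested were -0.0027 and 0.00276.

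Rises in all members included genes of the T and NK list. All 7 tested genes of the T and NK list, of 13 listed, lay above 0 (median 2.35), and Nkg7, Klre1, Il2rb and Klrb1c rose. The count filter can keep a gene for its counts in a single group, so the filter may itself favour such a count. Over all genes tested 3431 of 6898 lay above 0 and 0.609% rose. Nkg7, a granule membrane protein, was 25.5 and 36.6 CPM in the control libraries and 149 and 187 CPM with the shRNA (log2 2.45, SE 0.245, edgeR adjusted p = 3.22e-08). Thy1, a surface protein of T cells, was 2.04 and 5.48 against 49.3 and 54.8 CPM (log2 3.87). Gimap1, Ctsw, Klra7, Ctla2a, Gimap4 and Gem rose by 2.02 to 3.09, and Smc2 by 2.02. None of these genes had enough counts for a test in the reduced cells, which leave out cells by the T and NK list. Of the tumour list, the actin-binding Cald1 was 53.1 and 36.6 against 186 and 101 CPM (log2 1.58, edgeR adjusted p = 0.00722). Sox9 and Cd63, which are not on that list, rose by 2.21 and 0.98. Cd63 is on the macrophage marker and macrophage differentiation lists. Of 19 tested differentiation genes Cd63 rose, Pf4 fell and 14 lay below 0 (median -0.113). Over all genes tested 1.06% fell and 3467 of 6898 lay below 0. Among the reduced cells 9 of 19 differentiation genes lay below 0 and 0 passed. In the reduced cells Cald1 was 31.7 and 33.5 against 56.7 and 52.3 CPM (log2 0.73, edgeR adjusted p = 0.719), and Sox9 and Cd63 were at 1.54 and 0.23 and did not pass. The tumour list summed to 159 and 146 against 374 and 213 CPM in all members and 121 to 139 CPM in the reduced cells. Of the 34 cell-cycle genes, 20 were tested and all lay above 0 (median 0.80), of which Cks1b and Stmn1 rose, beside 3431 of all 6898 above 0. The limit of the filter holds here too, as genes scarce in controls could be kept by the shRNA libraries. Of those testable in the reduced cells, 5 of 9 lay above 0 (median 0.035) and 0 passed, where 2925 of all 5806 genes lay above 0.

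**Figure D4:**
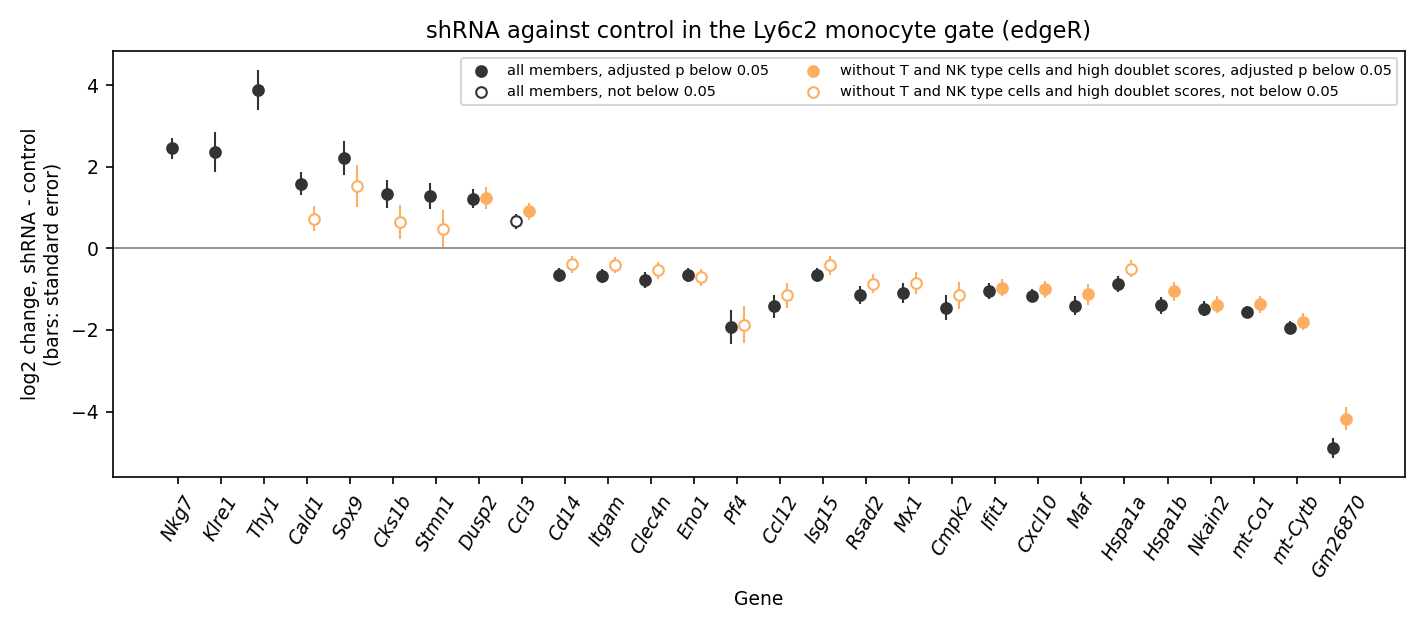
log2 difference, shRNA minus control (y axis, bars standard errors), for named genes (x axis) in all members and in the reduced cells, filled where the edgeR adjusted p is below 0.05. Nkg7, Klre1 and Thy1 have a value in all members only, while Dusp2, Cxcl10, Ifit1, Maf, Hspa1b and Nkain2 pass in both sets.

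Dusp2, which dephosphorylates MAP kinases in activated leukocytes (chr2:127336159-127338376, plus strand), rose in both sets of cells. It was 70.5 and 40.2 CPM in the control libraries and 131 and 149 CPM with the shRNA, and the groups did not overlap. The log2 difference was 1.22 (SE 0.2301, edgeR adjusted p = 0.00228), and 1.24 in the reduced cells (edgeR adjusted p = 0.0206). Control replicate 2 was the lowest library, and without it the values were 0.92 (edgeR adjusted p = 0.0722) and 0.89 (edgeR adjusted p = 0.315). Without control replicate 1 they were 1.77 and 1.92, both past the threshold. DESeq2 did not call Dusp2 in the reduced cells (DESeq2 adjusted p = 0.538), nor did edgeR with a replicate block (edgeR adjusted p = 0.1598). Ccl3, a chemokine that draws leukocytes (chr11:83647844-83649355, minus strand), was 113 and 122 against 244 and 199.5 CPM in the reduced cells (log2 0.91, edgeR adjusted p = 0.04903). In all members it was 108 and 124 against 182 and 193 CPM (log2 0.66, edgeR adjusted p = 0.0693) and did not pass, and in the reduced cells it passed in 1 of 4 single-library omissions, that of shRNA replicate 2 (edgeR adjusted p = 0.0191). DESeq2 did not call Ccl3 either (DESeq2 adjusted p = 0.993), nor did edgeR with a replicate block (edgeR adjusted p = 0.144). The 10 highest-ranked of the remaining genes, from Gm9733, Timp1 and Egr1 to Wac, were at 0.72 to 1.68 in the reduced cells and did not pass there.

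Interferon-response genes were examined next. Of 34 tested genes of the type I interferon list, 10 fell, 0 rose and 30 lay below 0 (median -0.505) in all members, where 1.06% of all genes fell and 3467 of 6898 lay below 0. In the reduced cells 1 fell and 26 lay below 0 (median -0.322), where 0.327% of all genes fell and 2881 of 5806 lay below 0. Leaving out 1 library gave list medians of -0.655 to -0.337 in all members and -0.490 to -0.0956 in the reduced cells. The list summed to 15074 and 13583 against 12863 and 11167 CPM in all members, and to 15747 and 13811 against 15706 and 12745 CPM in the reduced cells, where the groups overlapped.

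Cxcl10, the chemokine that draws lymphocytes bearing CXCR3 (chr5:92346638-92348889, minus strand), fell in both sets of cells. It was 1042 and 1013 CPM in the control libraries and 516 and 429.8 CPM with the shRNA, so the groups did not overlap in CPM. The share of members with a Cxcl10 UMI was less separate: 35.9 and 22.8 against 22.01 and 18.9%, with the lower control close to the higher shRNA library. Thinned to 1000 UMIs it was 29.04% and 18.1% in control members and 16.98% in the higher shRNA library (exact permutation p = 0.333) and 29.8 and 18.6 against 19.3 and 16.2% in the reduced cells, where the groups overlapped (exact permutation p = 0.667). Tumour-gated cells had thinned shares of 4.74% to 8.01%. The log2 difference of Cxcl10 in summed counts was -1.16 (SE 0.164, edgeR adjusted p = 2.39e-05), and -1.001 in the reduced cells (edgeR adjusted p = 0.0175). There it did not pass without control replicate 1 (-0.96, edgeR adjusted p = 0.119) or without shRNA replicate 2 (-0.80, edgeR adjusted p = 0.303). Tumour-gated cells held 109 and 89.8 against 137 and 128 CPM (log2 0.46, edgeR adjusted p = 0.121), the opposite direction. Of 24 tested interferon-gamma list genes Cxcl10 was the 1 that fell, with 21 below 0 (median -0.34), where 1.06% of all 6898 genes fell and 3467 lay below 0. In the reduced cells 20 of 24 lay below 0 (median -0.198), where 2881 of all 5806 genes did. Leaving out 1 library gave list medians of -0.533 to -0.127 in all members and -0.452 to 0.0675 in the reduced cells. Cxcl9, a ligand of the same receptor, was 630.4 and 789.7 against 339.6 and 539 CPM (log2 -0.73, edgeR adjusted p = 0.0628).

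Ifit1, which binds foreign RNA (chr19:34640871-34650009, plus strand), was 176 and 207 CPM in the control libraries and 91.8 and 98.2 CPM with the shRNA, without overlap. Its log2 difference was -1.04 (SE 0.194, edgeR adjusted p = 0.00213), and -0.96 in the reduced cells (edgeR adjusted p = 0.0345), where it passed in 0 of 4 single-library omissions (edgeR adjusted p = 0.0557 to 0.181). Thinned to 1000 UMIs a cell, 11.5% and 13.4% of control members and 5.35% and 6.79% of shRNA members had an Ifit1 UMI, and without thinning 19.7% and 16.8% against 12.9% and 11.4%. The thinned share in tumour-gated cells was 4.61% to 7.36%, so the shRNA members lie within that range and the controls above it. That range is not taken as background, since 60.7% to 75.3% of tumour-gated cells had a UMI of the interferon-response gene Isg15. C1q-high cells had thinned Ifit1 shares of 3.56% to 4.84%, below every library of members. The antiviral enzyme Rsad2 was 507 and 292 against 178 and 202 CPM (log2 -1.14, edgeR adjusted p = 0.0101) and the ubiquitin-like Isg15 1846 and 1389 against 1225 and 907 CPM (log2 -0.65, edgeR adjusted p = 0.0472). Both fell in all members and did not pass in the reduced cells (log2 -0.87 and -0.42). Cmpk2, Herc6, Mx1, Ifih1, Ifi205, Phf11b and Ifi204 fell by 0.66 to 1.45 in all members and were at -1.15 to -0.40 in the reduced cells, not passing. The sensor Ddx58 and the factors Irf7 and Stat2 were at 0.04, -0.27 and -0.52 in all members and did not pass.

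The promoters of 4 of these genes are shown for the letters that interferon-activated factors are known to bind. Each line gives the 250 bases before the annotated start, from RefSeq on GRCm38.p6, with matches in capitals. Gene coordinates given above come from GENCODE, whose Ifit1 start (34640871) lies inside the window used here. Distances below run to the RefSeq start. A match is TTTC, any 2 bases and TTTC again, or GAAA, any 2 bases and GAAA on the other strand. The windows are chr5:92348890-92349139 (minus strand) for Cxcl10, chr19:34640639-34640888 (plus strand) for Ifit1, chr12:26456453-26456702 (minus strand) for Rsad2 and chr4:156200819-156201068 (minus strand) for Isg15.
Cxcl10: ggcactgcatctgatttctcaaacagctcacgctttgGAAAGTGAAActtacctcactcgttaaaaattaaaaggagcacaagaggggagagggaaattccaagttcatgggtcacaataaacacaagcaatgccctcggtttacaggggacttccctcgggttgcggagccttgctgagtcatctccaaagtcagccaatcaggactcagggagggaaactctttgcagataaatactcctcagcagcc
Ifit1: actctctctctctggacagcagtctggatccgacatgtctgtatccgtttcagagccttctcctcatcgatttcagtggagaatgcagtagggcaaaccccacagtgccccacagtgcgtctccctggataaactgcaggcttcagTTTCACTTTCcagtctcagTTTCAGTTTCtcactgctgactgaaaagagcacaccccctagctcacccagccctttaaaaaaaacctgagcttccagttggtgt
Rsad2: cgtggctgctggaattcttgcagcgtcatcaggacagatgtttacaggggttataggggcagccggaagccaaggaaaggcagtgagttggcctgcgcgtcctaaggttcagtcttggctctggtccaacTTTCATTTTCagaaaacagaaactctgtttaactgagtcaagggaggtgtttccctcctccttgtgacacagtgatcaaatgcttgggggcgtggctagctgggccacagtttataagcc
Isg15: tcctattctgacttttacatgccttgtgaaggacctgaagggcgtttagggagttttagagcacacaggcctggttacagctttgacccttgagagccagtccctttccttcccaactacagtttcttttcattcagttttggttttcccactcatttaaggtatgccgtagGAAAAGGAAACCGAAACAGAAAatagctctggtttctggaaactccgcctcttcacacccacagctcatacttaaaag
Matches begin 213 bases before the start in Cxcl10, 104 and 85 in Ifit1, 120 in Rsad2, and 78, 72 and 66 in Isg15, where they overlap. Of 28 type I interferon list genes with a promoter in the table, 13 held a match (46.4%), against 3.46% of 27025 genes and 2.98% of 32851 promoters. A match describes the letters of this window, and binding was not measured.

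**Figure D5:**
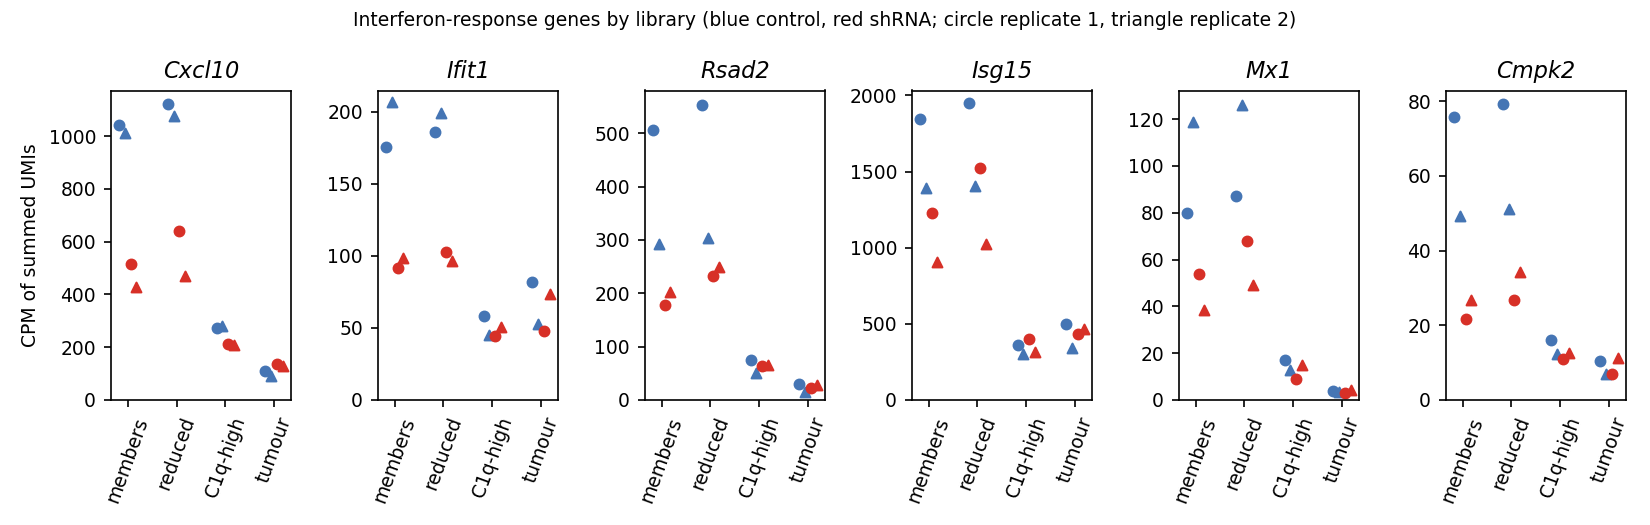
CPM of summed UMIs (y axes) of 6 interferon-response genes in all members, the reduced cells, C1q-high cells and tumour-gated cells (x axes), 1 point per library (blue control, red shRNA). Cxcl10 and Ifit1 separate the groups in both sets of monocytes, and Cxcl10 of tumour-gated cells lies slightly higher with the shRNA.

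Among cytokines and chemokines, Ccl12 and Pf4 fell in all members, 2 of 21 tested, with 15 below 0, where 1.06% of all genes fell and 3467 of 6898 lay below 0. The CCR2 ligand Ccl12 was 88.9 and 63.98 against 37.9 and 21.7 CPM (log2 -1.42, edgeR adjusted p = 0.00539), and -1.16 in the reduced cells (edgeR adjusted p = 0.141). Pf4, platelet factor 4, was 50.1 and 27.4 against 11.5 and 10.2 CPM (log2 -1.93, edgeR adjusted p = 0.00817), and -1.87 in the reduced cells (edgeR adjusted p = 0.0572). C1q-high cells held 524 to 922 CPM of Pf4. Tumour-gated cells held 7.89 and 11.8 against 5.54 and 3.22 CPM of Pf4 and 3.96 and 6.84 against 1.71 and 1.25 CPM of Ccl12, so their background runs with the groups too, and its part in both falls was not tested. The C1q genes of members, described above, were lower with the shRNA too. With members limited to under 10 C1q UMIs per 10000, Ccl12 was at -1.41 (edgeR adjusted p = 0.0198) and Pf4 at -1.72 (edgeR adjusted p = 0.102). Ccl2, the main ligand of CCR2, was 958 and 768 against 784 and 295 CPM (log2 -0.72, edgeR adjusted p = 0.766), lowest in shRNA replicate 2. Il1b and Tnf were at -0.27 and 0.06 and did not pass. Irg1, which makes itaconate in activated myeloid cells, was 171 and 201 against 82.6 and 89.3 CPM (log2 -1.14, edgeR adjusted p = 0.000688), and -0.91 in the reduced cells (edgeR adjusted p = 0.0545).

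Uptake and pattern-recognition genes lay mostly below 0, where over all genes tested 3467 of 6898 did so in all members and 2881 of 5806 in the reduced cells. All 16 tested genes of the Fc receptor and phagocytosis list did so in all members (median -0.521) and 15 of 16 in the reduced cells (median -0.306). The lipopolysaccharide co-receptor Cd14 was 563 and 748 against 453 and 394 CPM (log2 -0.66, edgeR adjusted p = 0.0446). The integrin Itgam was 419.9 and 413 against 282 and 253 CPM (log2 -0.68, edgeR adjusted p = 0.0359), and the lectin Clec4n 173 and 261 against 125 and 131 CPM (log2 -0.77, edgeR adjusted p = 0.03897). All 3 fell in all members, where 1.06% of all genes tested fell, and in the reduced cells their values of -0.39, -0.40 and -0.54 did not pass. Of 24 hypoxia and glycolysis genes 22 lay below 0 (median -0.298), and the glycolytic enzyme Eno1 fell, at 426 and 503 against 330.4 and 277 CPM (log2 -0.65, edgeR adjusted p = 0.0468). Eno1 was at -0.71 in the reduced cells (edgeR adjusted p = 0.219). Of 19 suppressive and tissue-remodelling genes 0 passed and 18 lay below 0 (median -0.404). Arg1 was 1807 and 1236 against 1401 and 797 CPM (log2 -0.52), and Spp1 was at 0.82 in all members and -0.15 in the reduced cells.

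Of 16 tested fate factors Maf alone fell, and 8 lay above and 8 below 0. Over all genes tested 1.06% fell and 3467 of 6898 lay below 0. Maf, a transcription factor of macrophages (chr8:115682942-115707794, minus strand), was 162 and 113 CPM in the control libraries and 59.7 and 49.7 CPM with the shRNA, without overlap. Its log2 difference was -1.40 (SE 0.225, edgeR adjusted p = 0.000217), and -1.13 in the reduced cells (edgeR adjusted p = 0.0345). Control replicate 1 was the highest library, and without it the values were -1.07 (edgeR adjusted p = 0.0585) and -0.73 (edgeR adjusted p = 0.988). Maf was 294 and 331 against 286 and 186 CPM in C1q-high cells and 37.8 and 45.5 against 31.01 and 31.4 CPM in tumour-gated cells. C1qa of members ran the same way (113 and 95.1 against 36.7 and 62.5 CPM). The macrophage marker list, C1q genes left out, summed to 2572 and 2579 against 2675 and 2438 CPM. A sum is weighted to abundant genes. Of the 12 tested genes of that list 10 lay below 0 in all members (median -0.167), and Cd63 rose and Maf fell. In the reduced cells 4 of 12 lay below 0 (median 0.0775), where 2881 of all 5806 genes did. With under 10 C1q UMIs per 10000 Maf was at -1.47 (edgeR adjusted p = 0.000759). Spi1, Irf8, Klf2 and Klf4, factors of monocyte identity and survival, were at -0.20, 0.24, 0.29 and 0.10. Of 15 tested classical monocyte markers the proteoglycan Vcan alone fell, at 91.9 and 69.5 against 44.7 and 25.5 CPM (log2 -1.26, edgeR adjusted p = 0.0101). It was at -1.07 in the reduced cells (edgeR adjusted p = 0.198). Of these markers 11 lay below 0 in all members and 5 in the reduced cells. Of 11 nonclassical markers 0 passed.

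Of 25 immediate early and heat-shock genes 17 lay above 0 in all members, where Dusp2 rose and Hspa1b and Hspa1a fell. Over all genes tested 3431 of 6898 lay above 0, 0.609% rose and 1.06% fell. Hspa1b, an inducible HSP70 (chr17:34956436-34959238, minus strand), was 138 and 154 CPM in the control libraries and 49.3 and 63.8 CPM with the shRNA (log2 -1.40, SE 0.216, edgeR adjusted p = 0.000111). Its value in the reduced cells was -1.06 (edgeR adjusted p = 0.0365), which passed in 1 of 4 single-library omissions, that of shRNA replicate 2. Its near copy Hspa1a was 266 and 393 against 166 and 200.2 CPM (log2 -0.87), and -0.49 in the reduced cells, not passing. How reads were divided between this pair is not given in the sources used here. Fos, Jun and Egr1, early genes of stimulated cells, were at 0.22, 0.22 and 0.59 and did not pass. In the stress-response list the serine-synthesis enzyme Phgdh rose by 1.25 in all members (edgeR adjusted p = 0.0468) and was at 0.57 in the reduced cells. Of 24 tested genes of that list 12 lay above 0 in all members.

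Mitochondrially encoded genes fell in both sets of cells. Of 12 tested 11 fell in all members (median -1.68), and all 11 tested fell in the reduced cells (median -1.48). Over all genes tested 1.06% and 0.327% fell. Cytochrome b (mt-Cytb) was 1481 and 1665 CPM in the control libraries and 383 and 458 CPM with the shRNA (log2 -1.94, SE 0.167, edgeR adjusted p = 1.27e-09). Cytochrome oxidase subunit 1 (mt-Co1) was 5485 and 5284 against 1700.3 and 2042 CPM (log2 -1.56). Other cells showed it too: mt-Cytb fell by 1.34 in C1q-high cells and by 1.04 in tumour-gated cells. Nkain2, a sodium pump interactor, was 433 and 590.4 against 195 and 179 CPM and fell by 1.48 in all members and 1.38 in the reduced cells. It fell by 1.08 in C1q-high cells and was at -0.96 in tumour-gated cells (edgeR adjusted p = 0.1105). Gm26870, a noncoding gene near the start of the assembled sequence (chr9:3000282-3038313), was 639.6 and 760.4 against 32.1 and 15.3 CPM (log2 -4.89). With Gm10800 and Gm10801 it had the largest falls in both sets, and it was 224 and 60.9 against 12.5 and 7.199 CPM in tumour-gated cells. These differences are shared by other cells of the same libraries, and their source was not tested.

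Other groups of genes held few or no calls, beside 115 of all 6898 genes tested (1.67%) in all members. Of 15 homing and adhesion genes Itgam alone passed, and the selectin ligand Selplg and the integrin Itga4 were at 0.12 and -0.26. None of 11 class II and 21 class I antigen presentation genes passed (medians -0.0367 and -0.0306). Cd74 was 3831 and 5008 against 2875 and 5316 CPM, high in replicate 2 of both groups. None of 20 cytokine and growth factor receptors passed (median -0.0279), and Csf1r, the macrophage growth factor receptor, was 319.8 and 336 against 298 and 261 CPM. Of 10 semaphorin and receptor genes 0 passed. Among receptors of SEMA4D, Plxnb2 was 52.1 and 56.7 against 56.2 and 73.97 CPM (log2 0.22, edgeR adjusted p = 0.786) and Cd72 30.6 and 42.04 against 24.1 and 14.03 CPM (log2 -0.91, edgeR adjusted p = 0.273). Of 5 tested granule genes of neutrophil-like monocytes 0 passed, and Elane, Mpo, Camp and Ngp had 0 UMIs in members.

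Whether the shRNA difference was another in monocytes than in C1q-high cells was tested as an interaction, with the library as a block. It called 234 of 11134 genes (2.1%), 50 with a higher difference in monocytes (0.449%) and 184 with a lower one (1.65%). Of 10887 genes in the reduced cells it called 20 (0.184%), 3 higher (0.0276%) and 17 lower (0.156%). In all members 23 and 57 passed without control replicate 1 and 4 and 26 without control replicate 2. Fth1, the ferritin heavy chain, was at -0.36 in monocytes and 0.42 in C1q-high cells, an interaction of -0.82 (edgeR adjusted p = 5.72e-19), and of -0.66 in the reduced cells (edgeR adjusted p = 1.9e-07). Coagulation factor F10 was 194 and 239 against 150.3 and 116 CPM in monocytes and 19.2 and 14.6 against 41.5 and 23.1 CPM in C1q-high cells, an interaction of -1.75 (reduced cells -1.45, edgeR adjusted p = 0.000664). Clec4n was at -0.77 in monocytes and 0.59 in C1q-high cells, an interaction of -1.39 (reduced cells -1.12, edgeR adjusted p = 0.000971). These genes thus lay below 0 in monocytes and above 0 in C1q-high cells, where none of the 3 passed.

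Complement C3 and the galectin Lgals3 had interactions of -1.50 and -0.75, and the protein C receptor Procr of -3.48, all past the threshold in the reduced cells too. Irg1 was 75.2 and 56.1 against 76.3 and 69.3 CPM in C1q-high cells, an interaction of -1.40 (reduced cells -1.16, edgeR adjusted p = 0.00999). It did not pass without control replicate 2 (-1.11, edgeR adjusted p = 0.1199). For Pf4 the interaction was -2.002 (reduced cells -1.90), and -1.25 without control replicate 1 (edgeR adjusted p = 0.423). The fall of Cxcl10 was larger in monocytes than the -0.32 of C1q-high cells (interaction -0.89, edgeR adjusted p = 3.57e-07, and -0.68 in the reduced cells, edgeR adjusted p = 0.0243). Ccl3 had an interaction of 0.71 (edgeR adjusted p = 0.0374), and of 1.02 in the reduced cells (edgeR adjusted p = 0.0165). Ifit1, Rsad2 and Isg15 had interactions of -1.02, -1.26 and -0.86 that passed in all members. Theirs did not pass in the reduced cells (edgeR adjusted p = 0.435, 0.0598 and 0.0552).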

How the data were processed

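There were 4 single-cell libraries of transplanted tumours, analysed from UMI counts that the authors deposited per gene and cell. Per the file headers the count matrices were written by PISA 1.0, and the submitters' processing notes name STAR 2.5.1b and the builds GRCh38 and mm10 without roles. The sources used here do not give cell calling, annotation or use of strand. Every deposited cell had at least 1000 UMIs, and all cells were kept.

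The members and all gene lists were chosen with earlier results of these data known. Member counts were summed per library, giving 547070 to 978801 UMIs, and group differences were tested in R 4.3.3 by edgeR 4.0.16 with limma 3.58.1 (filterByExpr, TMM scaling, robust quasi-likelihood fit, group as the only term). Genes of the member rule stayed out of counts of calls. C1q-high cells met the same myeloid rule with at least 20 C1q UMIs per 10000, and tumour-gated cells are the tumour-gene gate. The interaction with C1q-high cells used the library as a block. DESeq2 1.42.0 was an alternative, as were other size factors, filters, thresholds, thinning to 1000 UMIs and leaving out each library. CPM are counts per 1000000 summed UMIs. No doublets were removed from the main gate, and scores came from Scrublet in scanpy 1.11.5. The reduced cells were defined after seeing the data. Clustering used 1500 variable genes, 20 components, 15 neighbours and resolution 0.8. The scripts were tested on simulated data. Coordinates come from GENCODE annotation of GRCm38, matched by symbol, since the files hold none.

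Named genes are those of the rule with Chil3, Sema4d, Plxnb2 and Cd72, the 12 largest rises and falls that passed without overlap (filled up by p where fewer passed), every list gene that passed or else the 2 most abundant, the 8 leading interactions, and the 15 highest and lowest ratios to other classes. Further names (Irf7, Stat2, Ddx58, Cxcl9, Ccl2, Tnf, Fos, Jun and the fate and homing genes that did not pass) were chosen after their values were seen. A few list members are not reported here.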

Additional observations from a re-analysis of the deposited data

Results flagged for a closer look

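The 13 genes below were tested for a difference between the shRNA effect in monocytes and that in C1q-high cells, and each passed edgeR's interaction test in all members. Values are differences of log2 effects, monocytes minus C1q-high cells. Fth1 was at -0.82, Clec4n at -1.39, F10 at -1.75, C3 at -1.50 and Lgals3 at -0.75. Irg1 was at -1.40, Pf4 at -2.002 and Procr at -3.48. These 8 also passed in the reduced cells. Malat1 was at -0.98, Prdx5 at -0.85, Srgn at -0.78 and Gm42418 at -0.45, and these did not pass in the reduced cells (edgeR adjusted p = 0.515, 0.246, 0.874 and 0.128). Gzmc, a granzyme gene of lymphocytes, was at 6.24 and had too few counts for a test in the reduced cells. It was 1.17 on cells thinned to 1000 UMIs (edgeR adjusted p = 0.331), 5.39 without control replicate 1 (edgeR adjusted p = 0.598) and 7.51 without control replicate 2 (edgeR adjusted p = 0.629), and did not pass there. With 2 libraries per group, no test for a single outlying library was possible.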

How the results depend on the processing

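The monocyte share of myeloid cells and the number per C1q-high cell kept their direction under all 11 alternatives run. The difference of mean log2 shares of all cells turned to 0.0579 on cells thinned to 1000 UMIs and ranged from -0.41 to 0.21 when 1 library was left out. Against 42 higher and 73 lower genes in all members, a C1q threshold of 10 gave 26 and 34, omission of high doublet scores 18 and 21, of T and NK type cells 11 and 32 and of both 2 and 19. DESeq2 gave 9 and 22 and no filter 83 and 112. Lower genes were 45 at a monocyte threshold of 20, 47 without the robust fit and 40 without mitochondrial and repeat genes. Single-library omissions gave 21 to 60 higher and 29 to 66 lower, and 3 to 16 and 16 to 43 in the reduced cells, where DESeq2 gave 0 higher. Against 50 and 184 interactions, thinning gave 29 and 108, the threshold of 20 24 and 88, omission of high doublet scores 7 and 34, of T and NK type cells 32 and 116, of both 3 and 17, and DESeq2 2 and 29. Lower interactions were 121 at a C1q threshold of 10 and 105 with no filter, and single-library omissions gave 4 to 68 and 26 to 178. The causes were not tested.

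Libraries of both groups share the replicate numbers 1 and 2, which the labels do not tie to a shared animal, batch or day. Deviations from the group means of the same-numbered libraries correlated at 0.157 over 2615 genes, and whether the numbers pair the libraries was not settled. A replicate block gave 109 and 126 higher and lower genes in all members and 0 and 15 in the reduced cells, where it ended the calls of Dusp2, Ccl3, Ifit1 (edgeR adjusted p = 0.126), Maf (0.1598) and Hspa1b (0.135). When 1 library is left out, the lone library of a group is assumed to vary like the other group's.

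Signs turned for 11 genes, none past the threshold where they turned. Thinning gave Tsc22d1 -0.12, Chil3 0.30, B2m -0.00652, Spp1 -0.24 and Plxnb2 -0.09204. H2-D1 was 0.0124 at the threshold of 20. Without high doublet scores Cd74 was 0.0366, H2-Ab1 0.0635, H2-D1 0.0794 and Csf2rb 0.0179. Without T and NK type cells Spp1 was -0.000898, Itgb1 -0.0307 and Csf2rb 0.00119. In the reduced cells Chil3 was 0.0788, Cd74 0.16, H2-Ab1 0.18, H2-D1 0.0848, Spp1 -0.15, Itgb1 -0.15, Csf1r 0.0517 and Csf2rb 0.12. Single-library omissions ranged from -1.46 to 0.50 for Chil3, -0.68 to 0.24 for Cd74, -0.71 to 0.27 for H2-Ab1, -0.0485 to 0.11 for B2m, -0.15 to 0.0611 for H2-D1, -0.0447 to 0.30 for Itgb1 and -0.000788 to 0.43 for Plxnb2.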

Other observations

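Cells close to the monocyte-gene threshold were described on both sides of it. Lyz2, lysozyme, was 3337, 2397, 2442 and 2893 CPM (controls 1 and 2, shRNA 1 and 2) in the 42 members just inside and 2457, 2249, 833 and 1294 CPM in the 71 cells just outside. Ly6c1, a related gene known from endothelial cells, was at most 10.3 CPM in members and 10.8 to 39.5 CPM in tumour-gated cells. The nonclassical monocyte list summed to 710.4 to 1054 CPM in members and 300.0 to 397 CPM in C1q-high cells.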
